A study of Homo sapiens with 24 samples.

Results

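The 7 genes of the FOS and JUN families, FOS, FOSB, FOSL1, FOSL2, JUN, JUNB and JUND, were followed in 2 human cholangiocarcinoma cell lines, RBE and SNU1079, treated with YC-1. They were taken by gene symbol from a table of 57820 gene rows, each matched 1 row, and all 7 were among the 17860 genes tested (a normalised count of at least 10 in at least 3 libraries). Both lines carry mutant IDH1 and express SULT1A1, a sulfotransferase, at a high level, per the labels. YC-1, a small molecule of the benzylindazole class, stimulates soluble guanylate cyclase and also blocks HIF-1 signalling, and DMSO is its solvent. The 8 groups of 3 libraries were RBE with DMSO for 6 h, RBE with YC-1 for 6 h, RBE with DMSO for 16 h, RBE with YC-1 for 16 h, and the same 4 groups of SNU1079. The dose of YC-1 is not given in the sources used here. Times were read from sample titles, whose groups match those of the design text. A treatment time label that puts all DMSO libraries at 16 h and all YC-1 libraries at 6 h was not used. The design text calls the replicates biological without saying whether they were separate cultures, so p-values measure the spread between these libraries, which may be technical.

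AP-1 is a dimer of basic leucine zipper proteins. JUN proteins pair with each other or with FOS proteins, whereas FOS proteins need a partner from the JUN family or from related zipper families, and the dimers bind the sequence TGACTCA or close relatives of it. FOS, FOSB, JUN and JUNB are classic immediate early genes, transcribed briefly after growth factors or stress, and their mRNAs and proteins are short-lived. FOSL1 and FOSL2 lack the strong activation domain of FOS and often stay expressed in carcinoma cells.

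Normalised counts are reads scaled by the authors so that libraries can be compared, and 24 libraries were compared in 1 fit (limma on log2 of the normalised count + 1, Benjamini-Hochberg adjustment over all 17860 genes). A gene is said to have risen or fallen where its adjusted p was under 0.05. The sum of normalised counts per library ran from 19005743 to 27008873. Mitochondrial genes held 6.02% to 8.50% of it with DMSO and 7.78% to 11.5% after 6 h of YC-1. At 16 h with YC-1 they held 15.4% to 22.1%, except for 3.38% in SNU1079 replicate 2, and the part of this in the results was not tested. That library, SNU1079 with YC-1 for 6 h replicate 1 and SNU1079 with DMSO for 16 h replicate 1 stood apart from their replicates in overall distance, with GC-rich genes high in all 3. Replicate 3 of SNU1079 with YC-1 for 16 h was as far from its replicates as replicate 2 (root mean square log2 distance 0.851 and 0.850) and had the highest mitochondrial share, but its GC-rich genes were low (-0.30 against 0.43). The 3 were chosen after these values were seen, and results that rest on them are given with and without all 3. Cholangiocyte markers were present (8 of 9 matched genes at 10 or more in every group, summed 74780 to 162200), whereas hepatocyte markers summed to 1176 to 2215 with APOB at 0 in every group and ALB under the filter. Markers of stromal and endothelial cells summed to 93.55 to 163.7 in RBE and 738.8 to 3859 in SNU1079 with DCN at 0 in every group, and leukocyte markers summed to 1159 to 4247 with PTPRC and CD3E under the filter. Of the 4 leukocyte markers tested, 3 rose with YC-1 at 16 h in RBE (CD14, CD68 and CD79A, summed marker level 1253 to 1526 with DMSO and 2150 to 2283 with YC-1) and 2 in SNU1079 (CD14 and CD79A, 1435 to 1567 and 1192 to 4247). Of all genes 27.3% rose and 26.6% fell in RBE at 16 h, and 28.7% and 25.8% in SNU1079. Among 8 cholangiocyte markers tested 3 rose and 2 fell in RBE at 16 h, and 5 rose and 0 fell in SNU1079. Of 4 hepatocyte markers 1 rose and 0 fell in each line. Of 5 stromal and endothelial markers 0 rose, while 2 fell in RBE and 1 in SNU1079. The part of these markers in the results was not tested.

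The members lie on 5 chromosomes (GRCh38, GENCODE 29): FOS on chr14:75278774-75282230, FOSB on chr19:45467995-45475179, FOSL1 on chr11:65892049-65900573, FOSL2 on chr2:28392448-28417312, JUN on chr1:58780788-58784327, JUNB on chr19:12791496-12793315 and JUND on chr19:18279760-18281622. JUN, JUNB and JUND are single-exon genes, and the 4 FOS family genes have 4 exons each. Of the 7, 6 span under 10 kb and FOSL2 spans 24.86 kb. FOSB overlaps ERCC1 and JUNB overlaps HOOK2 on the opposite strand. The library kit keeps the strand, but the strand setting of the counting is not given in the sources used here.

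Promoters of 6 members, all but FOSL1, were found in RefSeq (GRCh38.p14), and the 250 bases before each start were searched on both strands. The stretches below lie just before the first annotated gene base of 4 members. All 6 promoters searched held the core element described below, and the 4 shown are of genes that moved very differently in these cells. They are FOS at chr14:75278634-75278773 (plus strand), FOSB at chr19:45467855-45467994 (plus), JUNB at chr19:12791346-12791485 (plus) and JUND at chr19:18281623-18281762 (minus), each read 5′ to 3′ along the gene. Capitals mark a TATA box and TGACG, the core of the cyclic AMP response element, or its reverse complement where the core lies on the other strand. The TATA box searched was TATAAA.
FOS: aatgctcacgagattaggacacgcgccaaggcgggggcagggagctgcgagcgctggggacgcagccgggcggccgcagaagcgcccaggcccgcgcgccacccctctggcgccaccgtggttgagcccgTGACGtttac
FOSB: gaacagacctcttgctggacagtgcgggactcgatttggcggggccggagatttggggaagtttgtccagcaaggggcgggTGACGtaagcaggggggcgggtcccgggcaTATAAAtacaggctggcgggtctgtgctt
JUNB: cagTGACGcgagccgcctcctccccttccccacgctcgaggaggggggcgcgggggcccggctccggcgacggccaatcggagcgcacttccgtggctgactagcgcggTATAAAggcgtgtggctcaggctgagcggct
JUND: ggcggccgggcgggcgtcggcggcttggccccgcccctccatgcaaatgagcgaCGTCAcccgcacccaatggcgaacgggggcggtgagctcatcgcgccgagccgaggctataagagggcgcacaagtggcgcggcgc

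FOS and FOSB, the members with the largest changes below, have the core TGACG from -64 to -60 and from -60 to -56 counted from the RefSeq start. FOSL2, which changed less, has it at almost the same place, from -66 to -62, and again on the other strand from -201 to -197. JUNB has it from -137 to -133, JUN from -123 to -119, and JUND on the other strand from -86 to -82. JUND also has the full element TGACGTCA from -200 to -193, whose match includes the core. A TATA box was found in FOS (-33 to -28, beyond the stretch shown), FOSB (-30 to -25) and JUNB (-31 to -26). Of 35116 promoters searched in the same way, 21.2% held TGACG, 1.65% held TGACGTCA and 10.7% had the TATA box. The AP-1 site TGACTCA (4.2% of promoters) and the CArG box (1.16%) were found in none of the 6, which says only that these letters are not in these windows. The core and the TATA box were added to the search after the sequences were seen, and no match is evidence of binding.

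FOS rose in both lines and at both times from a low level, and its difference was the largest of the 7 in each of the 4 comparisons. In RBE at 6 h its normalised count was 9.65, 16.5 and 9.06 in the DMSO libraries and 302, 326 and 295 in the YC-1 libraries. The 16 h values were 9.48, 19.9 and 15.7 with DMSO and 1152, 1044 and 1329 with YC-1. Every YC-1 library lay above every DMSO library, and the 16 h libraries with YC-1 lay above those of 6 h. The difference was 4.64 ± 0.27 on the log2 scale (SE, n = 3 against 3, limma adjusted p = 6.91e-11) at 6 h and 6.25 ± 0.27 (adjusted p = 1.84e-13) at 16 h, or 26.2-fold and 78.2-fold between the means. By size these were the 6th and 7th highest log2 differences of all 17860 genes. In bulk RNA, more transcript per cell and more cells with the transcript cannot be told apart.

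In SNU1079 at 6 h FOS read 8.91, 13.4 and 11.2 with DMSO and 461, 286.5 and 271 with YC-1. After 16 h the libraries gave 42.6, 41.4 and 32.7 with DMSO and 658, 964 and 748 with YC-1. The groups did not overlap at either time, and the solvent control at 16 h was itself above that at 6 h in all 3 libraries. The YC-1 difference was 4.78 ± 0.27 (limma adjusted p = 4.10e-11) at 6 h and 4.30 ± 0.27 (adjusted p = 4.63e-11) at 16 h. Without the 3 libraries that stood apart it was 4.54 and 4.22. In ascending order of group means, the DMSO groups of SNU1079 at 6 h (11.2 ± 2.22, SD, n = 3), RBE at 6 h (11.7 ± 4.16) and RBE at 16 h (15.0 ± 5.23) overlapped. They were followed by SNU1079 with DMSO at 16 h (38.9 ± 5.38), which stood clear of its neighbours. Then came RBE (307 ± 16.2) and SNU1079 (339.5 ± 105) with YC-1 at 6 h, which overlapped, SNU1079 with YC-1 at 16 h (789.9 ± 157) and RBE with YC-1 at 16 h (1175 ± 144).

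**Figure D1:**
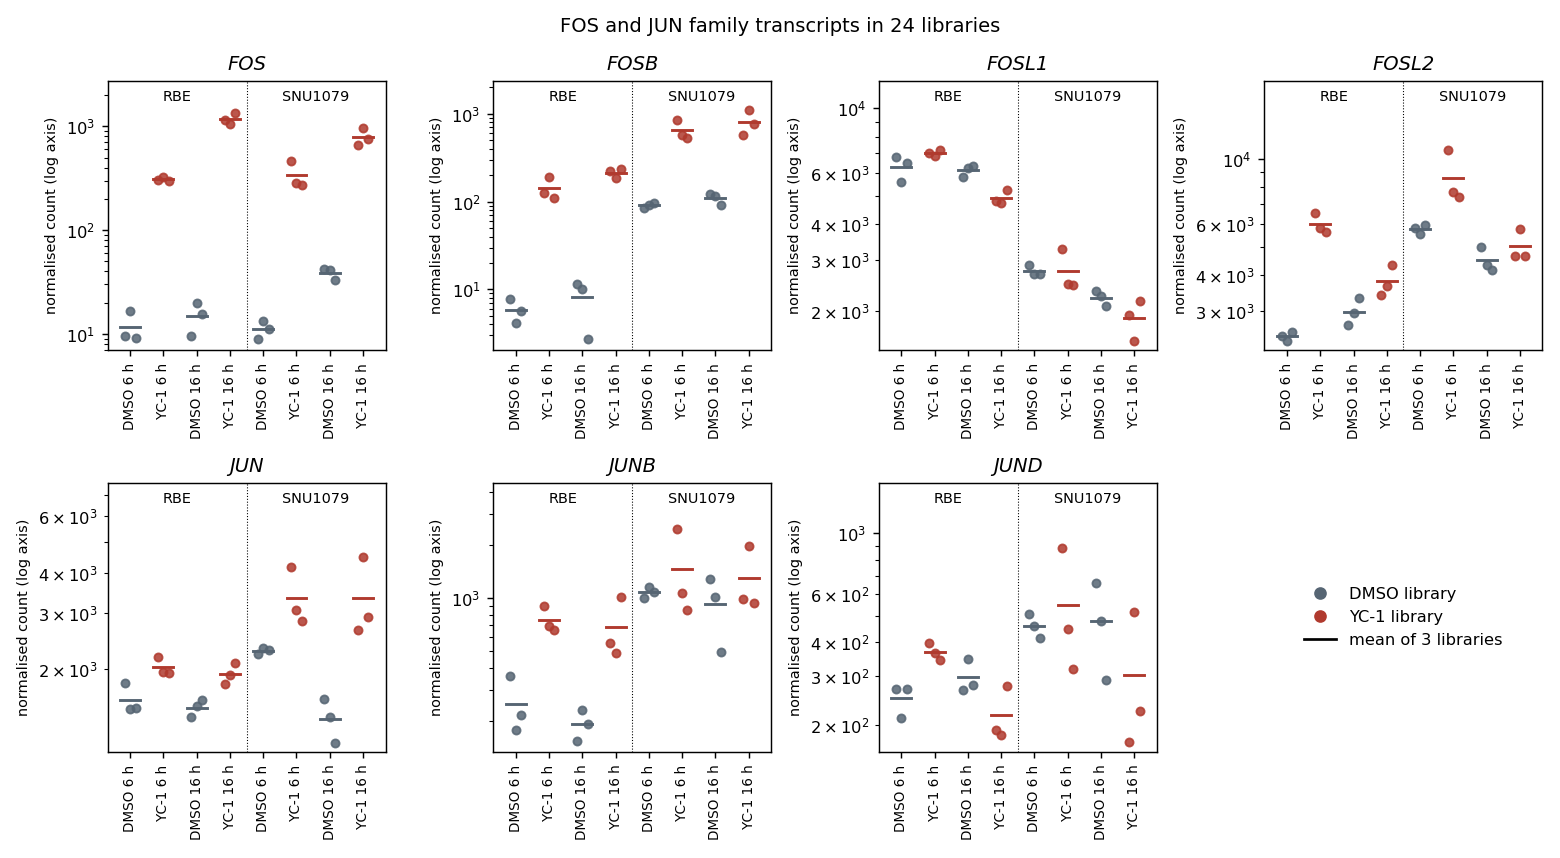
Normalised counts (log axis) of the 7 AP-1 genes in the 24 libraries, by line, treatment and time; each point is 1 library and each line the mean of 3. The YC-1 libraries of FOS and FOSB lie above all DMSO libraries of the same line at both times, whereas those of FOSL1 and JUND lie close to or among them.

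FOSB, which like FOS carries a strong activation domain, rose in all 4 comparisons but started from different levels in the 2 lines. In RBE it read 7.87, 4.17 and 5.61 with DMSO and 125, 191 and 111 with YC-1 at 6 h. At 16 h it read 11.4, 10.2 and 2.73 with DMSO and 222, 187 and 235 with YC-1. The groups did not overlap, and the differences were 4.37 ± 0.35 (limma adjusted p = 1.24e-08) and 4.74 ± 0.35 (adjusted p = 5.78e-10), or 24.2-fold and 26.4-fold. Because the RBE controls held under 12 normalised counts, the log2(value + 1) scale understates these changes.

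SNU1079 already contained FOSB at 85.2, 91.7 and 97.5 with DMSO at 6 h and 124, 116 and 91.7 at 16 h. With YC-1 the values were 856, 569 and 532 at 6 h and 575, 1096 and 772.5 at 16 h. Every YC-1 library lay above every control, and the control level of SNU1079 at 16 h overlapped that of RBE treated with YC-1 for 6 h. The differences were 2.79 ± 0.35 (limma adjusted p = 4.13e-06) and 2.83 ± 0.35 (adjusted p = 9.18e-07), or 7.13-fold and 7.38-fold, and without the 3 libraries that stood apart 2.58 and 2.68. In order of group means, RBE with DMSO at 6 h (5.88 ± 1.87) and 16 h (8.14 ± 4.72) overlapped. SNU1079 with DMSO at 6 h (91.5 ± 6.14) and 16 h (110.4 ± 16.6) and RBE with YC-1 at 6 h (142 ± 43.2) and 16 h (215 ± 24.8) each overlapped the next. SNU1079 with YC-1 at 6 h (652 ± 177) and 16 h (814.5 ± 263) overlapped each other and lay above all other groups. ERCC1, which lies opposite FOSB, differed by 0.24 (adjusted p = 0.233) and 0.28 (adjusted p = 0.0887) in RBE at 6 h and 16 h and by 0.18 (adjusted p = 0.377) and 0.68 (adjusted p = 2.22e-04) in SNU1079.

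FOSL1, the Fos-related antigen often raised in invasive carcinoma cells, did not rise in any comparison. In RBE at 6 h it read 6795, 5582 and 6484 with DMSO and 6996, 6833 and 7203 with YC-1, a difference of 0.16 with a 95% interval of -0.08 to 0.40 (limma adjusted p = 0.355). The 16 h values were 5778, 6249 and 6319 with DMSO and 4772, 4705 and 5225 with YC-1. The 16 h groups did not overlap, and FOSL1 fell by 0.32 ± 0.11 on the log2 scale (adjusted p = 0.023). This call was lost without DMSO replicate 2 or 3 or YC-1 replicate 1 or 2, where the adjusted p was 0.0628 to 0.0726, and with libraries scaled to their upper quartiles (-0.27, adjusted p = 0.0643). With libraries scaled to equal sums FOSL1 gave -0.65 (adjusted p = 3.37e-05), and with scaling to the ribosomal protein genes -1.2 (adjusted p = 9.41e-07).

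In SNU1079 FOSL1 read 2885, 2688 and 2684 with DMSO and 3278, 2484 and 2463 with YC-1 at 6 h, a difference of -0.02 (limma adjusted p = 0.95). After 16 h the libraries gave 2335, 2253 and 2084 with DMSO and 1940, 1576 and 2160 with YC-1, a difference of -0.24 ± 0.11 (adjusted p = 0.0785). The groups overlapped at both times. Without the 3 libraries that stood apart the differences were -0.15 (adjusted p = 0.162) and -0.08 (adjusted p = 0.463). The 16 h difference passed without YC-1 replicate 3 alone (-0.34, adjusted p = 0.0188), with equal sums (-0.61, adjusted p = 7.13e-05) and with ribosomal protein scaling (-0.68, adjusted p = 0.00103). By group mean all RBE groups (4901 ± 283 to 7011 ± 186) stood above all SNU1079 groups (1892 ± 295 to 2753 ± 115). Neighbours that overlapped were both treatments of SNU1079 at 16 h, both treatments of SNU1079 at 6 h, and the DMSO groups of RBE.

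FOSL2 rose early in both lines. In RBE at 6 h it read 2455, 2372 and 2553 with DMSO and 6543, 5793 and 5606 with YC-1. At 16 h it read 2689, 2946 and 3320 with DMSO and 3396, 3664 and 4326 with YC-1. The groups were far apart at 6 h and next to each other at 16 h. The difference was 1.28 ± 0.13 (limma adjusted p = 2.78e-07, 2.43-fold) at 6 h and 0.34 ± 0.13 (adjusted p = 0.0295) at 16 h. The 16 h value depended on the scaling. It held with libraries scaled to their upper quartiles (0.39, adjusted p = 0.0163). It was 0.02 (adjusted p = 0.938) with libraries scaled to equal sums and -0.54 with libraries scaled to the ribosomal protein genes. The call was also lost without DMSO replicate 1 (0.27, adjusted p = 0.13) or 2 (adjusted p = 0.0667) or YC-1 replicate 3 (0.25, adjusted p = 0.159).

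In SNU1079 FOSL2 read 5775, 5537 and 5955 with DMSO and 10740, 7688 and 7413 with YC-1 at 6 h. The 16 h values were 4980, 4309 and 4165 with DMSO and 4645, 5743 and 4649 with YC-1. The 6 h groups did not overlap and the 16 h groups did. The difference was 0.56 ± 0.13 (limma adjusted p = 0.00233) at 6 h and 0.16 ± 0.13 (adjusted p = 0.317) at 16 h. Without the 3 libraries that stood apart the 6 h difference was 0.39, and with ribosomal protein scaling it was 0.38 (adjusted p = 0.0885). In order of group means FOSL2 ran from RBE with DMSO at 6 h (2460 ± 90.6) and 16 h (2985 ± 318) through RBE with YC-1 at 16 h (3795 ± 479) to SNU1079 with DMSO (4485 ± 435) and YC-1 (5012 ± 633) at 16 h. SNU1079 with DMSO at 6 h (5755 ± 210), RBE with YC-1 at 6 h (5981 ± 496) and SNU1079 with YC-1 at 6 h (8613 ± 1850) followed. Each group from RBE with YC-1 at 16 h to RBE with YC-1 at 6 h overlapped the next.

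JUN, the founding member of the JUN family and a partner for every FOS protein, changed less than FOS and FOSB. In RBE at 6 h it read 1803, 1504 and 1513 with DMSO and 2175, 1953 and 1939 with YC-1. After 16 h the libraries gave 1412, 1531 and 1602 with DMSO and 1800, 1922 and 2084 with YC-1. The groups did not overlap at either time, but neither difference passed the threshold. These were 0.34 ± 0.16 (limma adjusted p = 0.15) and 0.35 ± 0.16 (adjusted p = 0.0727). In a fit of the 12 RBE libraries alone both passed, with adjusted p of 0.0111 and 0.00438. At 16 h equal sums gave 0.03 (adjusted p = 0.927), upper quartiles 0.40 (adjusted p = 0.0447) and ribosomal protein scaling -0.53 (adjusted p = 0.0124).

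In SNU1079 JUN read 2235, 2319 and 2287 with DMSO and 4153, 3048 and 2817 with YC-1 at 6 h. At 16 h it read 1608, 1416 and 1177 with DMSO and 2647, 4460 and 2901 with YC-1. All YC-1 libraries lay above all controls at both times. JUN rose by 0.53 ± 0.16 (limma adjusted p = 0.0175) at 6 h and by 1.22 ± 0.16 (adjusted p = 1.94e-06, 2.38-fold) at 16 h. Without the 3 libraries that stood apart the differences were 0.36 (adjusted p = 0.00781) and 1.10, and the 16 h rise was 0.79 with ribosomal protein scaling (adjusted p = 7.42e-04). The 6 h call was lost without YC-1 replicate 1 alone (0.36, adjusted p = 0.107) or DMSO replicate 1 alone (0.52, adjusted p = 0.0521). It was also lost with equal sums (0.48, adjusted p = 0.061) and with ribosomal protein scaling (0.35, adjusted p = 0.164). Fits of the 12 SNU1079 libraries alone (adjusted p = 0.113) and of the 6 libraries compared (adjusted p = 0.0698) lost the 6 h call as well. The group means of JUN lay between 1400 ± 216 (SNU1079 with DMSO at 16 h) and 2022 ± 132 (RBE with YC-1 at 6 h) in the 4 RBE groups and the SNU1079 control of 16 h, and each of these overlapped the next. SNU1079 with DMSO at 6 h (2280 ± 42.7) stood alone, and SNU1079 with YC-1 at 16 h (3336 ± 982) and 6 h (3339 ± 714) overlapped.

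JUNB, which can oppose JUN on some promoters, rose in RBE and not detectably in SNU1079. In RBE it read 358, 177 and 216 with DMSO and 898, 689.8 and 661 with YC-1 at 6 h. The 16 h values were 152, 229 and 192 with DMSO and 555, 485.5 and 1014 with YC-1. The groups did not overlap, with differences of 1.63 ± 0.39 (limma adjusted p = 0.00361, 3.0-fold) and 1.78 ± 0.39 (adjusted p = 6.20e-04, 3.59-fold). HOOK2, the gene opposite JUNB, differed by 0.21 (adjusted p = 0.498) and 0.61 (adjusted p = 0.0111) in the same comparisons.

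In SNU1079 JUNB read 1003, 1153 and 1082 with DMSO and 2467, 1070 and 854 with YC-1 at 6 h. After 16 h the libraries gave 1279, 1008 and 490.2 with DMSO and 984, 1980 and 938 with YC-1. The groups overlapped at both times, and in every group except DMSO at 6 h the library that stood apart was the highest. The differences were 0.28 (95% interval -0.53 to 1.10, limma adjusted p = 0.656) and 0.51 ± 0.39 (adjusted p = 0.281), and without those libraries -0.17 and 0.45. HOOK2 differed by 0.25 (adjusted p = 0.383) and 1.15 (adjusted p = 4.02e-05). By group mean the RBE controls at 16 h (191 ± 38.5) and 6 h (250.3 ± 95.6) overlapped and stood below all other groups. From RBE with YC-1 at 16 h (685 ± 287) to SNU1079 with YC-1 at 6 h (1464 ± 876) each group overlapped the next.

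JUND, the JUN family member usually described as steadily expressed in resting cells, passed the threshold in none of the 4 comparisons of YC-1 with DMSO. In RBE it read 269, 211 and 269 with DMSO and 395.5, 365 and 346 with YC-1 at 6 h, and the groups did not overlap. At 16 h it read 268, 346 and 279 with DMSO and 191, 183 and 278 with YC-1, and they did. The differences were 0.57 (95% interval -0.16 to 1.30, limma adjusted p = 0.275) and -0.47 (95% interval -1.20 to 0.26, adjusted p = 0.271). In the fit of the 12 RBE libraries alone both passed, higher at 6 h (adjusted p = 0.0232) and lower at 16 h (adjusted p = 0.032). At 16 h ribosomal protein scaling gave -1.35.

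In SNU1079 JUND read 506, 459 and 413 with DMSO and 879, 446 and 320.0 with YC-1 at 6 h. The 16 h values were 659.7, 478 and 292 with DMSO and 172, 513.5 and 225 with YC-1. The groups overlapped, and the differences were 0.13 (limma adjusted p = 0.845) and -0.73 ± 0.35 (adjusted p = 0.0828). Without the 3 libraries that stood apart the 16 h value was -0.92 (adjusted p = 0.0032), without YC-1 replicate 2 alone -1.19 (adjusted p = 0.00475) and without DMSO replicate 3 alone -1.05 (adjusted p = 0.0238). It also passed with equal sums (-1.10, adjusted p = 0.0177) and with ribosomal protein scaling (-1.17, adjusted p = 0.008). The 6 h value without the 3 libraries was -0.28 (adjusted p = 0.361). The lowest group mean was 217 ± 52.7 in RBE with YC-1 at 16 h and the highest 548.5 ± 293 in SNU1079 with YC-1 at 6 h. Neighbouring groups in that order overlapped except RBE with YC-1 at 6 h (369 ± 25.1) and SNU1079 with DMSO at 6 h (459.5 ± 46.6).

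**Figure D2:**
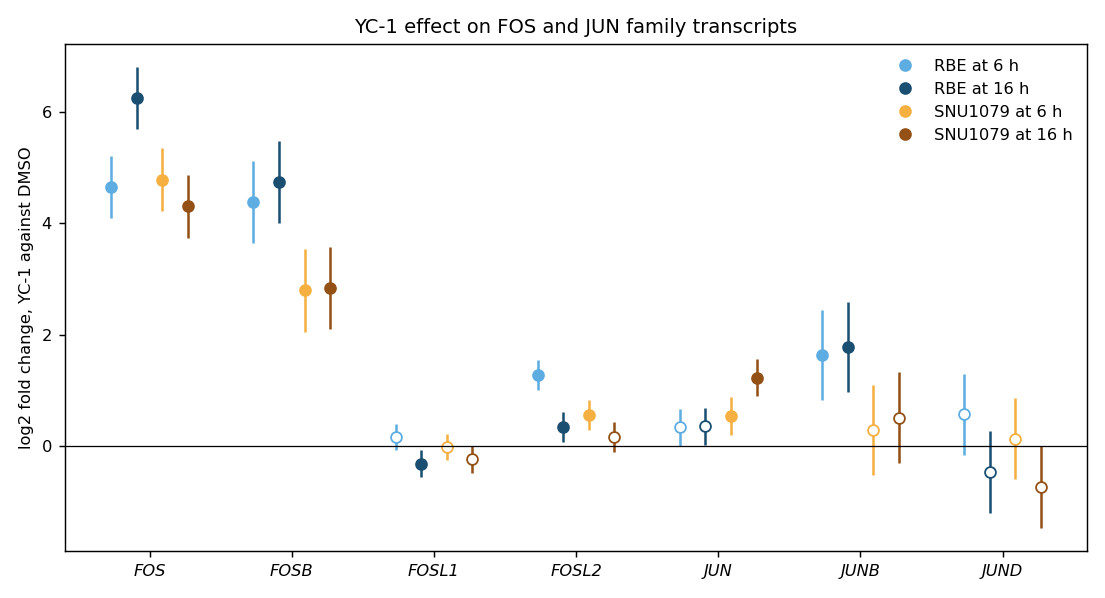
Difference between YC-1 and DMSO for each gene on the log2(normalised count + 1) scale with its 95% interval, in the 4 combinations of line and time; filled points passed an adjusted p of 0.05 and open points did not. FOS and FOSB lie highest in all 4, from 2.79 to 6.25, and FOSL1 and JUND lie between -0.73 and 0.57.

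Counted together, 4 of the 7 members rose and 0 fell in RBE at 6 h, where 11.6% of all tested genes rose and 12.4% fell. All 7 had every YC-1 library above every control there, as 23.5% of all genes did (24.6% had every one below). In RBE at 16 h 4 rose and 1 fell, against 27.3% and 26.6% of all genes, and 5 lay wholly above and 1 wholly below the controls, against 35.6% and 33.5%. In SNU1079 at 6 h 4 rose and 0 fell, against 14.0% and 14.2%, and 4 lay wholly above the controls, against 20.1% of genes above and 20.2% below. At 16 h 3 rose and 0 fell, against 28.7% and 25.8%, and 3 lay wholly above, against 26.8% above and 24.5% below. The median difference over the members was 1.28, 0.35, 0.53 and 0.51 in this order, and over all genes 0.00, 0.02, 0.01 and 0.06. The YC-1 comparisons of a line at 6 h and 16 h used separate controls.

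Whether induction persisted was tested as the YC-1 difference at 16 h minus that at 6 h, each against its own control. In RBE 1 member had a larger difference at 16 h and 2 a smaller one, against 8.80% and 9.43% of all genes. The difference of FOS grew by 1.60 ± 0.38 (limma adjusted p = 0.00544), although with ribosomal protein scaling the growth was 0.75 (adjusted p = 0.133). That of FOSL2 shrank by 0.93 (-0.93 ± 0.18, adjusted p = 0.00132), and that of FOSL1 went from 0.16 to -0.32 (-0.48 ± 0.16, adjusted p = 0.0433). The FOSL1 call was lost on leaving out any of 10 of the 12 libraries, with a range of -0.54 to -0.40 over all 12. FOSB (0.36 ± 0.50, adjusted p = 0.675), JUN (0.02 ± 0.23, adjusted p = 0.974) and JUNB (0.15 ± 0.55, adjusted p = 0.897) showed no detectable change in the size of the difference. JUND gave -1.04 ± 0.50 (adjusted p = 0.159). Its difference passed as smaller at 16 h in the fit of the 12 RBE libraries alone (-1.04 ± 0.24, adjusted p = 0.00746). It also passed with ribosomal protein scaling (-1.89, adjusted p = 0.0042).

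In SNU1079 only JUN passed, with a difference larger by 0.70 ± 0.23 at 16 h (limma adjusted p = 0.0415), against 8.47% of all genes with a larger and 8.53% with a smaller difference. The JUN call was lost on leaving out any of 8 of the 12 libraries, with a range of 0.47 to 0.86 over all 12, and with equal sums (0.39, adjusted p = 0.33) or ribosomal protein scaling (0.44, adjusted p = 0.26). FOS (-0.48 ± 0.38, adjusted p = 0.418), FOSB (0.04 ± 0.50, adjusted p = 0.976) and FOSL2 (-0.40 ± 0.18, adjusted p = 0.136) did not pass. Neither did FOSL1 (-0.23 ± 0.16, adjusted p = 0.369). With equal sums FOSL2 (-0.71, adjusted p = 0.0182) and FOSL1 (-0.53, adjusted p = 0.0158) passed, both with a smaller difference at 16 h. The median over the members was 0.02 in RBE and -0.23 in SNU1079, and over all genes -0.01 and 0.02.

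**Figure D3:**
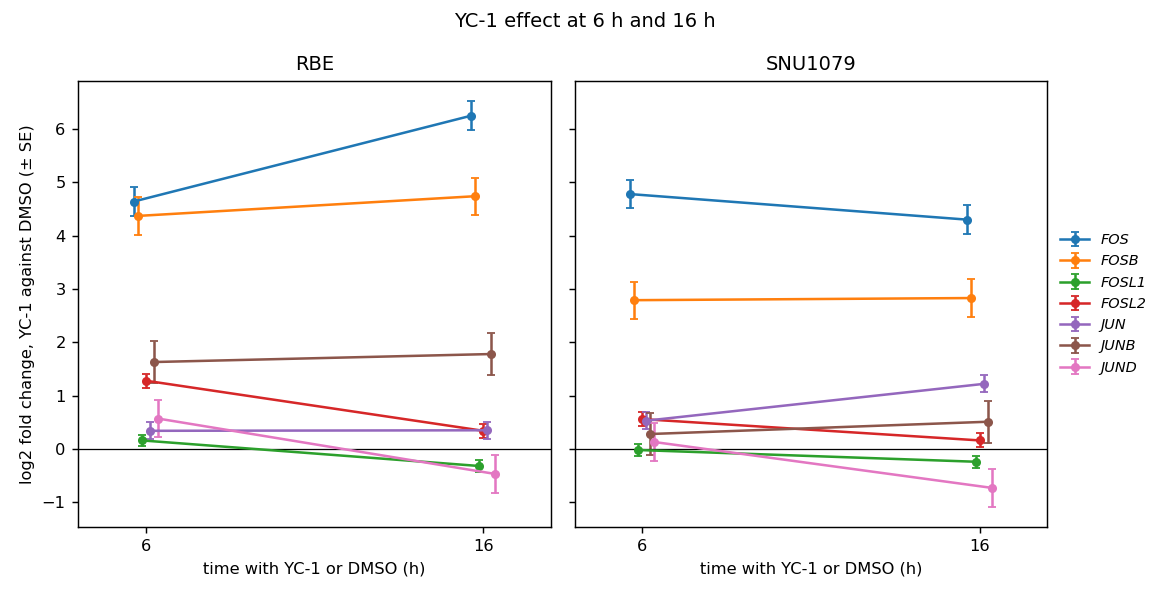
YC-1 minus DMSO difference (log2 scale, ± SE) of each member at 6 h and 16 h, with 1 panel for each cell line and 1 line for each gene. FOS rises from 4.64 to 6.25 in RBE, FOSL2 drops from 1.28 to 0.34 in RBE, and JUN rises from 0.53 to 1.22 in SNU1079.

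The controls moved as well. In RBE 0 of the 7 members passed between 6 h and 16 h with DMSO by limma, with 1 at an unadjusted p under 0.05 (FOSL2), and 0.00560% of all genes were called higher and 0.0392% lower. In SNU1079 the DMSO level of FOS rose by 1.72 ± 0.27 (limma adjusted p = 2.56e-04, 3.48-fold) and that of JUN fell by 0.71 (-0.71 ± 0.16, adjusted p = 0.00766), against 3.82% of genes higher and 4.75% lower. The JUN call was lost in the fit of the 12 SNU1079 libraries alone (-0.71 ± 0.21, adjusted p = 0.113). Within YC-1, FOS rose from 6 h to 16 h in both lines, by 1.93 in RBE (adjusted p = 1.79e-05) and 1.24 in SNU1079 (adjusted p = 0.0018). FOSL1 fell in both (-0.52, adjusted p = 0.0017, and -0.53, adjusted p = 0.00174), and so did FOSL2 (-0.66, adjusted p = 5.98e-04, and -0.77, adjusted p = 1.98e-04). With YC-1, 14.7% of all genes were higher and 16.5% lower at 16 h in RBE, and 12.7% and 12.9% in SNU1079. JUND gave -0.78 (adjusted p = 0.0954) in RBE and -0.88 (adjusted p = 0.07) in SNU1079 and did not pass. With equal sums it passed in both (-1.07, adjusted p = 0.0301, and -1.14, adjusted p = 0.0262). In RBE it also passed in the fits of 12 (adjusted p = 0.00356) and 6 libraries (adjusted p = 0.0173). JUN with YC-1 in SNU1079 differed by -0.02 between the times (adjusted p = 0.956). Its mean was 3339 at 6 h and 3336 at 16 h, while the control mean was 2280 and 1400.

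The 2 lines were also compared for their response. At 6 h 0 of the 7 members differed between the lines in their YC-1 difference by limma, where 0.767% of genes had a larger and 0.773% a smaller difference in SNU1079. An unadjusted p under 0.05 was found for 3, FOSB (-1.58 ± 0.50, SNU1079 minus RBE, adjusted p = 0.139), FOSL2 (-0.72 ± 0.18, adjusted p = 0.0502) and JUNB (-1.35 ± 0.55, adjusted p = 0.303). Without the 3 SNU1079 libraries that stood apart all 3 passed, with FOSB at -1.80 (adjusted p = 0.0436), FOSL2 at -0.89 (adjusted p = 4.66e-04) and JUNB at -1.80 (adjusted p = 0.0174). FOS gave 0.14 (adjusted p = 0.959). At 16 h FOS (-1.95 ± 0.38, adjusted p = 0.00158) and FOSB (-1.90 ± 0.50, adjusted p = 0.0135) responded less in SNU1079 and JUN responded more (0.87 ± 0.23, adjusted p = 0.0135), against 6.43% of genes lower and 8.17% higher. JUNB gave -1.27 ± 0.55 (adjusted p = 0.132), which passed without the 3 libraries (-1.33, adjusted p = 0.0417) and without SNU1079 with DMSO at 16 h replicate 3 (-1.67, adjusted p = 0.0419). For FOS the DMSO level at 16 h was higher in SNU1079 than in RBE, 38.9 against 15.0 (1.36, adjusted p = 1.90e-04). For FOSB it was 110.4 against 8.14 (3.78, adjusted p = 1.09e-08). With YC-1 at 16 h the mean of FOSB was also higher in SNU1079, 814.5 against 214.7, so its smaller response there is one on the log2 scale.

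Before treatment effects, the lines differed in most members. At 6 h with DMSO SNU1079 was above RBE in FOSB (3.78, limma adjusted p = 1.00e-08, 15.6-fold), JUNB (2.17, adjusted p = 7.43e-05, 4.31-fold), FOSL2 (1.23, adjusted p = 6.16e-08), JUND (0.88, adjusted p = 0.0375) and JUN (0.51, adjusted p = 0.0109). It was below RBE in FOSL1 (-1.19, adjusted p = 1.60e-08). FOS gave -0.04 (adjusted p = 0.92). Among all genes 27.2% were higher and 29.2% lower in SNU1079. The JUND call was lost on leaving out any 1 of the 6 libraries, where the adjusted p was 0.0533 to 0.118. At 16 h 4 members were higher (FOS, FOSB, FOSL2 and JUNB) and FOSL1 was lower, against 25.9% and 29.3% of genes. JUN gave -0.12 (adjusted p = 0.541) and JUND 0.61 (adjusted p = 0.15).

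To compare levels between genes, normalised counts were divided by the length of all annotated exons in kb. FOSL1 had the highest mean in every group, at 3332 per kb in RBE and 1459 in SNU1079 with DMSO at 6 h. In SNU1079 with YC-1 at 16 h its libraries (mean 1003) overlapped those of JUN (942). FOS was at 3.63 and 3.45 per kb in the same groups, and FOSB at 1.06 and 16.5. After 16 h of YC-1 FOS reached 363 per kb in RBE, close to JUNB at 376, and 244 in SNU1079. The share of FOS in the summed level of the 7 genes went from 0.105% with DMSO to 7.94% with YC-1 in RBE at 16 h and from 0.402% to 6.23% in SNU1079. Even so, FOSL1 held 57.0% of the sum in RBE with YC-1 at 16 h, where its share with DMSO was 74.4%. In SNU1079 at 16 h it held 39.8% with DMSO and 26.6% with YC-1, and JUN went from 13.2% to 23.8%. The sum itself was 4357 ± 250 per kb with DMSO and 4568 ± 479 with YC-1 in RBE at 16 h. Between these groups the means of FOSL1 (3241 to 2597 per kb) and JUND (159.8 to 116.6) were lower with YC-1. Those of the other members were higher, with FOS going from 4.639 to 363 and FOSB from 1.465 to 38.66. In SNU1079 at 16 h the sum was 2997 ± 505 and 3914 ± 741. The 4 FOS family genes together held 84.1% and 77.4% in RBE and 62.0% and 54.5% in SNU1079. These shares describe mRNA and not protein, and they were not tested.

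**Figure D4:**
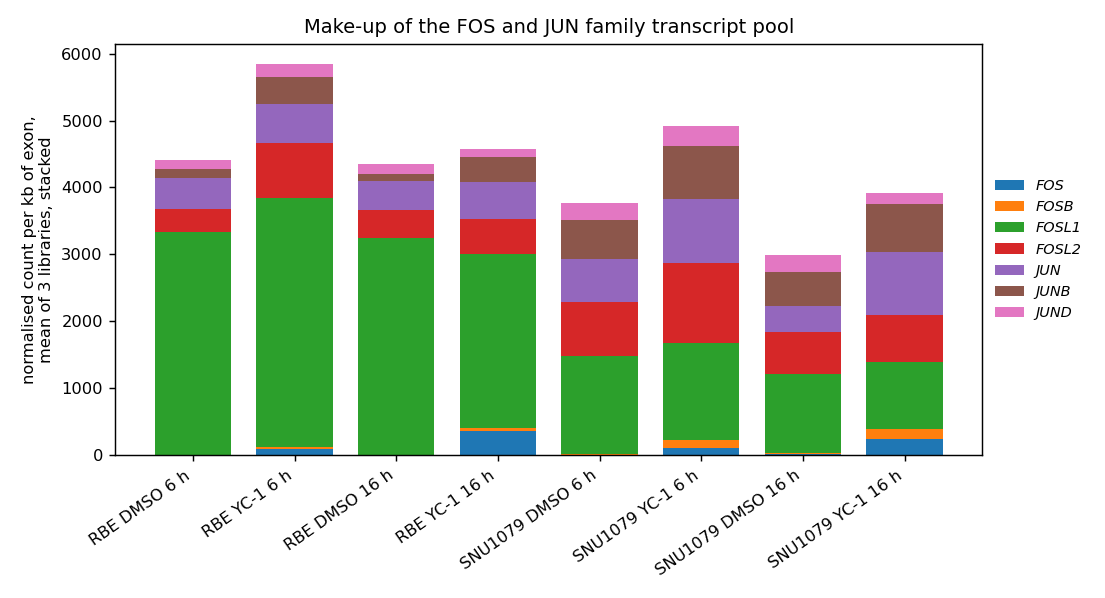
Mean normalised count per kb of exon of the 7 AP-1 genes, stacked for each of the 8 groups. FOSL1 is the largest block in every group, and the FOS block becomes visible only with YC-1, at 363 per kb in RBE and 244 per kb in SNU1079 at 16 h.

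The spread between replicates differed among members, and for JUNB and JUND it moved with that of GC-rich genes. JUND and JUNB have the most GC-rich transcripts of the 7 (69.7% and 64.9% GC, above 99.7% and 96.9% of tested genes). In the SNU1079 libraries with YC-1 for 6 h replicate 1, DMSO for 16 h replicate 1 and YC-1 for 16 h replicate 2, JUNB lay above its group mean by 0.91, 0.57 and 0.70 on the log2 scale and JUND by 0.81, 0.55 and 0.92. The median of the 1726 most GC-rich genes lay above its group mean by 0.52, 0.33 and 0.43 in the same libraries, and that of the 1726 most GC-poor genes was at -0.61, -0.32 and -0.27. FOS, at 59.9% GC, deviated by 0.48, 0.14 and 0.31 there, a small amount beside its treatment differences. FOSL1, the third in GC at 60.5%, deviated by 0.27, 0.07 and -0.25, and JUN, at 56.7%, by 0.34, 0.21 and 0.46, so the members did not follow GC content in order. The part of base composition in the JUNB and JUND values was not tested.

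**Figure D5:**
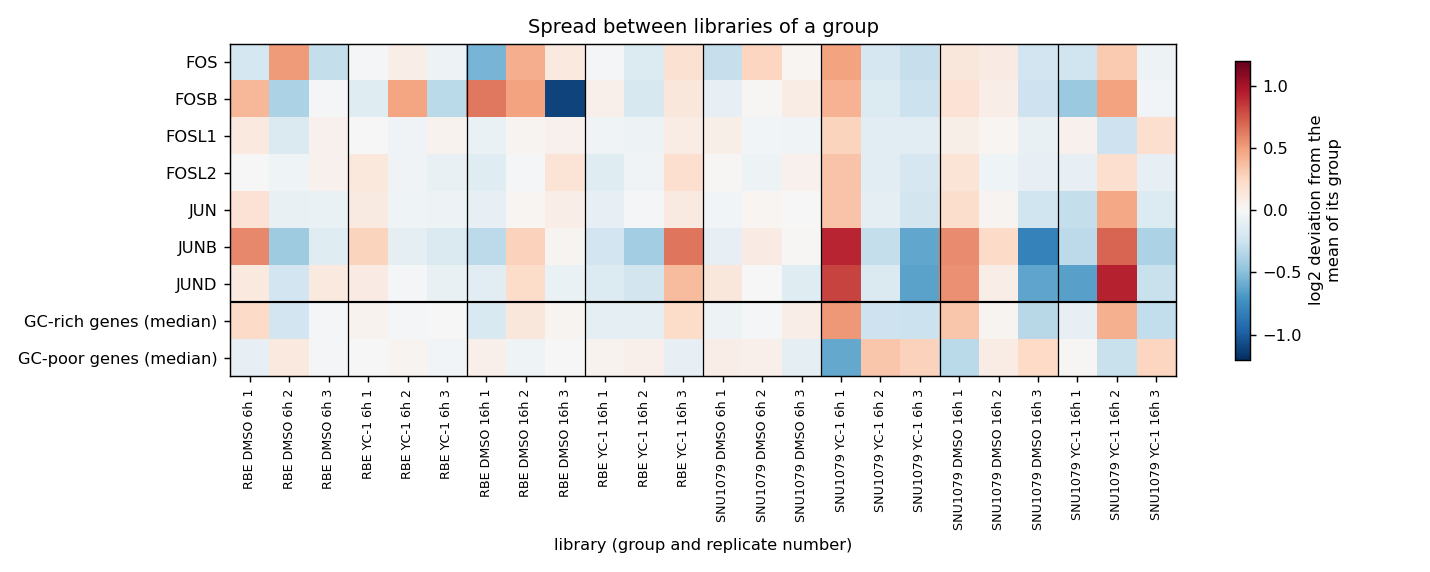
Log2 deviation of each library from its group mean for the 7 members and for the median GC-rich and GC-poor genes, with the 24 libraries grouped by line, treatment and time. JUNB and JUND are high in the 3 SNU1079 libraries where GC-rich genes are also high (0.52, 0.33 and 0.43).

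Gene length moved with the response to YC-1 across all genes. Genes under 10 kb, which include 6 of the 7 members, had a median difference of 0.10 and 0.48 in RBE at 6 h and 16 h and 0.11 and 0.35 in SNU1079, and 13.7%, 38.3%, 16.4% and 35.5% of the 4832 rose. The 590 genes over 300 kb had medians of -0.73, -1.25, -0.61 and -1.0. FOS, FOSB and JUNB in RBE lay far above the median of short genes. JUN in RBE at 16 h (0.35), FOSL1 at 16 h (-0.32 and -0.24) and JUND at 16 h (-0.47 and -0.73) lay below it. At 16 h the median of all genes moved by -0.30 in RBE and -0.31 in SNU1079 with equal sums and by -0.82 and -0.38 with ribosomal protein scaling. FOS kept 5.38 and 3.87 and FOSB 3.91 and 2.40 with the latter, while FOSL2 and JUN in RBE changed sign as given above. The part of gene length or scaling in the smaller differences was not tested.

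Several zipper proteins outside the families that can pair with FOS or JUN rose as mRNA. Of 14 tested dimer partners (of 15 listed, BATF was under the filter) 6 rose and 1 fell in RBE at 6 h, 7 and 3 at 16 h, 8 and 0 in SNU1079 at 6 h, and 7 and 1 at 16 h. Over all genes 11.6%, 27.3%, 14.0% and 28.7% rose and 12.4%, 26.6%, 14.2% and 25.8% fell in these comparisons. The median difference of the partners was 0.91, 1.23, 1.04 and 0.54, beside 0.00 to 0.06 over all genes. ATF3, a stress-induced partner of JUN, rose by 5.66, 6.63, 5.18 and 5.76 in this order. The small MAF proteins, which lack an activation domain, rose in all 4, with MAFF at 2.56 to 4.53, MAFK at 1.47 to 2.62 and MAFG at 1.02 to 1.92. MAF itself passed in 3 of the 4 and gave 0.76 in SNU1079 at 16 h (limma adjusted p = 0.0542). ATF4, the effector of the integrated stress response, fell by 0.49 in RBE at 16 h, rose by 1.04 in SNU1079 at 6 h and by 0.27 at 16 h, where equal sums gave -0.09 and ribosomal protein scaling -0.17.

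Among kinases upstream of AP-1 falls were more frequent than rises by count, least so in SNU1079 at 16 h. Of 31 MAP kinase pathway genes 1 rose and 9 fell in RBE at 6 h, 5 and 11 at 16 h, 1 and 9 in SNU1079 at 6 h and 8 and 11 at 16 h, with medians of -0.10, -0.21, -0.22 and 0.13. Over all genes 11.6% rose and 12.4% fell, 27.3% and 26.6%, 14.0% and 14.2%, and 28.7% and 25.8%, so the share that rose in SNU1079 at 16 h was close to that of all genes. At 16 h equal sums gave 1 and 16 in RBE and 3 and 13 in SNU1079, where the median turned to -0.23. MAP3K5, which activates JNK and p38 under oxidative stress, fell in all 4 (-2.68, -3.36, -2.35 and -2.42). MAP3K1, MAP3K3, MAP3K4, MAP2K4 and the MSK kinase gene RPS6KA5 fell in all 4 as well (-2.43 to -0.55). These 6 genes span 73.9 to 235.5 kb, a class in which the median of all genes was also below 0. Transcript levels do not measure kinase activity.

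Among 12 factors known to act at FOS or JUN promoters, coactivators included, 3 rose and 3 fell in RBE at 6 h, 5 and 3 at 16 h, 3 and 1 in SNU1079 at 6 h, and 8 and 2 at 16 h (medians 0.14, 0.18, 0.14 and 0.57). In RBE at 16 h the share that fell was close to the 26.6% of all genes, and 27.3% of all genes rose there. Of all genes 11.6% rose and 12.4% fell in the RBE comparison of 6 h, while SNU1079 had 14.0% and 14.2% at 6 h and 28.7% and 25.8% at 16 h. SRF, which binds the CArG box, rose in both RBE comparisons (0.64 and 1.12) and in the 16 h one of SNU1079 (1.71), and gave 0.36 in SNU1079 at 6 h without passing. Its coactivator MRTFA fell in all 4 (-1.56, -2.23, -1.87 and -2.88). MRTFB fell in both RBE comparisons (-1.16 and -2.57) and the 16 h one of SNU1079 (-2.87) and gave -0.78 in SNU1079 at 6 h (limma adjusted p = 0.0699). MEF2D (1.07 to 1.38) and CREM (0.55 to 1.53) rose in all 4. MEF2A passed at 16 h (0.65 and 0.69), and both calls were lost with equal sums and with ribosomal protein scaling. The CREM call in RBE at 6 h was lost with the latter (0.53, limma adjusted p = 0.0918). With ribosomal protein scaling the RBE 16 h values of SRF, MEF2D and CREM were 0.23, 0.19 and 0.25 and none passed, and MEF2A gave -0.23. The list then had 0 higher and 7 lower in RBE at 16 h with a median of -0.71.

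Of 11 genes that act on the stability of AP-1 mRNA or protein 2 rose and 3 fell in RBE at 6 h, 3 and 6 at 16 h, 3 and 5 in SNU1079 at 6 h, and 4 and 5 at 16 h (medians -0.15, -0.42, -0.29 and -0.14). Of all genes 11.6% rose and 12.4% fell, then 27.3% and 26.6%, 14.0% and 14.2%, and 28.7% and 25.8%, and the share that rose in RBE at 16 h was close to that of all genes. COP1, a ubiquitin ligase component that targets JUN, fell in all 4 (-1.28, -1.95, -1.70 and -2.96). ITCH, another ligase for JUN proteins, fell in the last 3 comparisons (-1.49, -0.78 and -0.99) and gave -0.57 in the first. HNRNPD, which binds AU-rich mRNA, fell in the same 3 (-0.79, -0.72 and -1.25). ZFP36L1 and ZFP36L2, which speed the decay of AU-rich mRNAs, rose in RBE at 6 h (0.93 and 0.50) and in SNU1079 (1.06 and 1.08 at 6 h, 1.07 and 0.51 at 16 h). The last of these, ZFP36L2, was lost with equal sums (0.15, limma adjusted p = 0.273) and with ribosomal protein scaling (0.07, adjusted p = 0.743). In RBE at 16 h ZFP36L1 rose by 0.42, but gave 0.09 with equal sums and -0.46 with ribosomal protein scaling, and ZFP36L2 fell by 0.42. FBXW7, a ligase subunit for JUN, fell at 6 h (-0.73 and -1.11) and rose by 0.63 in RBE at 16 h, where equal sums gave 0.31 and ribosomal protein scaling -0.25, neither of which passed. Its RBE 6 h call was lost with ribosomal protein scaling (-0.76, adjusted p = 0.0656). COP1, ITCH and FBXW7 span 148.2 to 262.7 kb.

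Genes described as AP-1 targets rose more often than they fell. Of 21 tested (of 24 listed, MMP3, MMP13 and IVL were under the filter) 6 rose and 1 fell in RBE at 6 h, 11 and 1 at 16 h, 7 and 2 in SNU1079 at 6 h, and 16 and 1 at 16 h, with medians of 0.30, 0.53, 0.34 and 1.16. Over all genes 11.6% rose and 12.4% fell, 27.3% and 26.6%, 14.0% and 14.2%, and 28.7% and 25.8%. With ribosomal protein scaling RBE at 16 h had 5 and 5 with a median of -0.28. The cytokine IL11 rose by 3.17 to 3.94 and the growth factor HBEGF by 2.13 to 3.29. The chemokine CXCL8 rose in RBE (2.25 and 2.14) and SNU1079 (3.01 and 5.51), and the cytokine LIF by 0.99 to 1.88. VEGFA rose by 1.34 and 1.16 at 6 h and by 0.62 and 0.66 at 16 h, where ribosomal protein scaling gave -0.26 and 0.23 and neither passed. CCND1, which encodes cyclin D1, fell at both times in RBE (-0.46 and -0.51) and at 6 h in SNU1079 (-0.50) and rose by 1.16 at 16 h, and its RBE 6 h call was lost with ribosomal protein scaling (-0.49, limma adjusted p = 0.0784). Its SNU1079 control was 16600 at 6 h and 7012 at 16 h, and the YC-1 groups were 11840 and 16020.

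Genes with the most similar pattern to each member were found by the correlation of log2 values over the 24 libraries, centred within each line, among 12314 genes with a group mean of at least 100. The libraries share treatment groups and depth, so r is a description. For FOS they were SUPT7L (r = 0.981), SDHAF4 (0.979) and ZNF425 (0.976), and ZNF425 was also close to FOSB (0.969) beside PPP1R15A (0.972) and SELPLG (0.972). PPP1R15A, the phosphatase subunit GADD34 of the stress response, gave log2 differences of 2.65, 3.33, 2.22 and 2.40. For FOSL1 the nearest were PPRC1 (0.921), MYC (0.915) and PAPD7 (0.874). MYC gave 0.47 and -1.29 in RBE at 6 h and 16 h, beside 0.16 and -0.32 for FOSL1. For FOSL2 they were ZNF592 (0.939), MEPCE (0.928) and BET1L (0.926), and MEPCE encodes a capping enzyme of the 7SK RNA that restrains P-TEFb. For JUN they were RRP12 (0.977), CBS (0.957) and METRNL (0.956). For JUNB they were BBC3 (0.922), which encodes PUMA, DCAKD (0.909) and ARFRP1 (0.899), and for JUND ZBTB45 (0.813), THAP7 (0.805) and PROSER2 (0.799). Among the members themselves FOS and FOSB were the closest pair (0.952), followed by FOSB with JUNB (0.783) and FOSL2 with JUNB (0.748), whereas FOS with FOSL1 gave -0.422.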

How the data were processed

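RNA was sequenced from 24 libraries (Qiagen RNeasy Plus Mini, TruSeq Stranded mRNA, per the labels' protocols). The authors deposited 1 table of normalised counts, a signal scaled between libraries; STAR, DESeq2 and hg38 are named per the submitters' processing notes. Their versions, the counting tool and its strand setting are not stated there. Whole reads could not be recovered, so the number of reads behind each value is unknown and no counting interval is given. All per-sample columns were mapped by title.

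Values were analysed as log2(normalised count + 1) in limma 3.58.1 (R 4.3.3) with 1 mean per group over all 24 libraries (16 residual degrees of freedom), a variance trend, a filter of 10 in at least 3 libraries and Benjamini-Hochberg adjustment over 17860 genes. An exact permutation test of 3 against 3 cannot go below p = 0.1. The script was tested on simulated data. Exon lengths, spans and GC came from GENCODE 29 by Ensembl ID (17258 tested genes, 96.6%) and promoters from RefSeq. Named genes were all 7 members, for each member the 3 genes of highest correlation, and for each list up to 6 genes called in the most comparisons with a group mean of at least 100, ties by mean absolute difference. The members and the lists (dimer partners, MAP kinases, factors that act at FOS and JUN promoters, turnover, targets and markers of 4 cell types) were chosen with earlier results of these data known. Alternatives covered the pseudocount, the filter, the scaling, the fit and each library left out, and the fit without 3 libraries was chosen after seeing the data.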

Additional observations from a re-analysis of the deposited data

Results flagged for a closer look

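The YC-1 difference of 3 members was tested to differ between 6 h and 16 h in RBE. Of all genes, 8.80% had a larger and 9.43% a smaller difference at 16 h there. FOS gave 1.60 ± 0.38 (16 h minus 6 h, log2 scale, limma adjusted p = 0.00544), with all 6 YC-1 libraries above their controls at both times. The FOS value was 0.75 with ribosomal protein scaling (adjusted p = 0.133). FOSL1 gave -0.48 (adjusted p = 0.0433) and FOSL2 gave -0.93 (adjusted p = 0.00132). The FOSL1 call was lost on leaving out any of 10 of the 12 libraries. In SNU1079 JUN gave 0.70 (adjusted p = 0.0415), against 8.47% of all genes with a larger and 8.53% with a smaller difference. The JUN call was lost on leaving out any of 8 of the 12 libraries.

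At 16 h the YC-1 difference was tested to differ between the lines in 3 members. Of all genes, 8.17% had a larger and 6.43% a smaller difference in SNU1079. FOS gave -1.95 (SNU1079 minus RBE, limma adjusted p = 0.00158), FOSB gave -1.90 (adjusted p = 0.0135) and JUN gave 0.87 (adjusted p = 0.0135). All 6 libraries with YC-1 at 16 h lay above their controls for each of these 3 genes. Of all genes, 35.6% had every YC-1 library above every control in RBE at 16 h and 26.8% in SNU1079.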

How the results depend on the processing

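Of 1967 values of single members recomputed under the alternatives, 1858 kept their side of the threshold (sign changes of values that passed under neither setting included), 62 lost the call, 44 gained one and 3 reversed. The reversals came with ribosomal protein scaling in RBE: FOSL2 at 16 h (-0.54, from 0.34), JUN at 16 h (-0.53, from 0.35) and JUN at 16 h minus 6 h (-0.84, from 0.02). The cause was not tested. FOS and FOSB passed in all 4 comparisons under every scaling.

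The number of members called moved by over 1.5 times as follows. With a pseudocount of 5 or a filter of 50 the lines differed at 6 h in 1 member instead of 0, and without the 3 libraries that stood apart in 3. For 16 h minus 6 h in SNU1079 it was 0 instead of 1 with no filter, upper quartile or ribosomal protein scaling, no variance trend, or the 12 libraries of the line, and 2 with equal sums (FOSL1 and FOSL2, both smaller, and not JUN). For YC-1 against DMSO in SNU1079 it was 5 instead of 3 at 16 h with equal sums or ribosomal protein scaling, and 2 instead of 4 at 6 h with ribosomal protein scaling or 6 libraries. From 6 h to 16 h with YC-1 it was 6 instead of 3 in RBE with ribosomal protein scaling and 0 instead of 3 in SNU1079 with 6 libraries. With DMSO in SNU1079 it was 1 instead of 2 with 12 libraries, where JUN was lost, and 4 without the 3 libraries. Leaving out 1 library gave 3 to 4 members (5 with all) for RBE at 16 h, 0 to 1 for 16 h minus 6 h in SNU1079 and 0 to 1 between the lines at 6 h.

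Among all genes, ribosomal protein scaling turned the split in RBE at 16 h from 4867 higher and 4754 lower to 1068 and 9773, and equal sums to 2908 and 6475. In SNU1079 at 16 h the split went from 5130 and 4611 to 2582 and 6603, or 3068 and 6599 with equal sums, and at 6 h from 2499 and 2543 to 1384 and 3080. For 16 h minus 6 h RBE went from 1571 and 1685 to 141 and 7737 (equal sums 566 and 3436), and SNU1079 from 1512 and 1524 to 385 and 1832 (500 and 3239). Within YC-1 RBE went from 2626 and 2942 to 283 and 8797 (1038 and 5192), and SNU1079 from 2262 and 2310 to 498 and 3561 (740 and 4297). Between the lines at 16 h it went from 1459 and 1149 to 3617 and 324.

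Genes called, all 24 libraries first, went from 4290 to 6760 (12 libraries) or 8282 (times pooled) in RBE at 6 h. In SNU1079 they went from 5042 to 3332 (12 libraries) or 8465 (times pooled) at 6 h and from 9741 to 6363 (6 libraries) at 16 h. For 16 h minus 6 h they went from 3256 to 7878 (ribosomal protein scaling) or 6229 (12 libraries) in RBE, and from 3036 to 1078 (12 libraries) or 5343 (without the 3 libraries) in SNU1079. Between the lines they went from 275 to 1153 (without the 3) at 6 h and from 2608 to 3941 (ribosomal protein scaling) or 4027 (without the 3) at 16 h. Within DMSO they went from 8 to between 4 and 68 in RBE and from 1530 to between 469 and 3272 in SNU1079. Within YC-1 they went from 5568 to 9080 (ribosomal protein scaling) or 8466 (12 libraries) in RBE and from 4572 to 2426 (12 libraries) or 44 (6 libraries) in SNU1079.

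Libraries of the same replicate number were weakly correlated in their deviations from group means (-0.206 to 0.188). Different numbers were not compared, so this cannot tell whether the samples were paired. With a replicate block no member's call changed (FOS in RBE at 6 h 4.64, with 4, 5, 4 and 3 members called in the YC-1 comparisons). Reads per value are unknown, so the level below which FOS and FOSB cannot be told from 0 in the RBE controls is not given.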
